A study of Homo sapiens with 9 samples.

Results

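The genes described here encode the translation initiation factors, the proteins that bring an mRNA, the initiator tRNA and the ribosomal subunits together. They were taken from the count table by name: EIF, then a digit from 1 to 6, then further capitals or digits. Rows of the EIF2AK kinases, of the EIF4EBP proteins that bind EIF4E, and of 73 pseudogenes were left out. This gave 49 members of 59453 gene names. MDA-MB-231, an established line of human triple-negative breast cancer cells, was sequenced untreated, after 8 h of TEPA, and after 24 h of TEPA, with 3 libraries in each group. TEPA is a copper chelator, given at 8 mM per the labels and at 4 mM per the RNA sequencing methods. All cells came from this single line, the sources used here name no vehicle for the untreated cells, and the same untreated libraries served both times. The labels give no time for the untreated cells, so time in culture and time with TEPA cannot be told apart. Nothing says that the 3 libraries of a group came from separate cultures, so p-values measure only the spread between these libraries, which may be technical.

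Total counts ran from 34633755 to 49342659 per library, and 16556 genes passed the filter on low counts and were tested. Members held 0.977 to 1.03% of all counts in untreated libraries, 1.07 to 1.09% at 8 h and 0.983 to 0.985% at 24 h. Of the members, 47 passed the filter, and EIF4E1B and EIF1AY did not. The mesenchymal and epithelial genes of the line, VIM, CD44, KRT18 and KRT8, were all expressed, and PGR was at 0 in every library. ESR1 had 2 to 9 counts per library, ERBB2 was present with 1911 to 3532 counts, and CDH1 had 10 to 33 counts in untreated and 8 h libraries and 119 to 144 at 24 h. Of 7 markers of other cell types, 3 (PECAM1, COL1A1 and PDGFRB) passed the filter, CD3E was at 0, and the summed level of the 7 was 45.4 to 59.8 CPM (counts per 1000000 counts of the scaled library) in untreated libraries, 57.9 to 62.8 at 8 h and 117 to 126 at 24 h. PDGFRB, with means of 34.2 CPM untreated, 27.1 at 8 h and 94.5 at 24 h, made up most of the 24 h sum. In the same order, COL1A1 was highest at 8 h (13.7, 32.4 and 18.0) and PECAM1 was lowest at 8 h (3.59, 1.06 and 8.13). Mitochondrially encoded genes held 1.79 to 2.91% of counts in untreated libraries, 3.61 to 4.02% at 8 h and 1.89 to 2.02% at 24 h. The part of these genes in the results below was not tested. Levels are shares of each library of bulk RNA, so fewer cells of a type and less RNA per cell cannot be told apart.

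Initiation begins when eIF4E binds the cap of the mRNA and joins the scaffold eIF4G and the helicase eIF4A, while eIF2 carries the initiator tRNA to the small ribosomal subunit together with eIF1, eIF1A, eIF3 and eIF5. After the start codon is found, eIF5 stimulates hydrolysis of the GTP on eIF2, eIF5B joins the large subunit, and eIF2B reloads eIF2 with GTP. The 4E-BP proteins hold eIF4E away from eIF4G, and kinases of the EIF2AK family phosphorylate eIF2 and so block eIF2B. Both steps are regulated on proteins and cannot be read from mRNA levels.

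The promoters of 3 members are shown because all hold the E-box CACGTG, the motif bound by MYC and related factors, while their mRNAs moved differently after TEPA: EIF4E and EIF2B3 were lower at both times and EIF4G1 was higher at 8 h. Sequences are from RefSeq on GRCh38.p14, written in the direction of transcription, and only upstream bases outside annotated exons are printed. Capitals mark the E-box, and EIF4G1 has a second E-box in the bases left out. The EIF4E stretch ends at the base before the start site, chr4:98929134-98929383 on the minus strand. That of EIF2B3 covers chr1:44986723-44986845 on the minus strand, and that of EIF4G1 chr3:184314356-184314494 on the plus strand.
EIF4E: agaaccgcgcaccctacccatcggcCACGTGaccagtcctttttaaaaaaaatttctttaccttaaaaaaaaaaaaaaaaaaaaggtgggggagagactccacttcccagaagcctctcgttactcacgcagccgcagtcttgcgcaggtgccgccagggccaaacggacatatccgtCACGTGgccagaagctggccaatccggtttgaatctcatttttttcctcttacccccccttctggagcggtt
EIF2B3: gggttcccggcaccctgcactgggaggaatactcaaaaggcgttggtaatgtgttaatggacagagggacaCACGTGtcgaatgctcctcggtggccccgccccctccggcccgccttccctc
EIF4G1: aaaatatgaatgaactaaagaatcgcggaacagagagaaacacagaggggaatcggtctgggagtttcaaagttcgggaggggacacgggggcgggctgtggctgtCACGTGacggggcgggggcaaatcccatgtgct

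Promoters of 42 members were matched, each from 250 bases before to 50 bases after the start. CACGTG, which reads the same on both strands, was in 10 of these 42 promoters (23.8%), against 7.43% of 27305 promoters of all genes. This background was not limited to genes tested here or matched for base composition, so a difference from it cannot be called particular to initiation factors. Besides the 3 members above, it was found for EIF1B, EIF3F, EIF3K, EIF4A3, EIF4B, EIF4H and EIF5A2. These 10 members did not all move one way: at 24 h, EIF4E, EIF2B3, EIF4A3, EIF4H and EIF3K were lower, EIF1B and EIF3F were higher, and EIF4B, EIF4G1 and EIF5A2 were not called. Of all genes tested, 26.8% were lower and 25.7% higher at 24 h. The calls of EIF1B and EIF3F were lost when certain single libraries were left out. Whether members with the motif lean to one direction was not tested. On either strand, the ETS-type motif CCGGAAGT was in 8 promoters (19%, against 4.44% of all promoters) and the YY1-type motif AAGATGGC in 3 (7.14%, against 3.03%). TGATGCAA, a motif of the ATF4 type, was in 0 of the 42, against 0.923% of all promoters. These matches are descriptions of letters in a window, and binding was not measured here.

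At 8 h, 25 of the 47 tested members passed the test against untreated cells (edgeR's quasi-likelihood test, Benjamini-Hochberg adjusted p under 0.05), 18 of them higher and 7 lower. Over all genes tested, 49.6% were called, 25.2% higher and 24.5% lower, so the share of members called (53.2%) was near the background while the split was 38.3% higher and 14.9% lower. At 24 h the split turned: 21 members were called, 6 higher and 15 lower, against a background of 52.5% called, 25.7% higher and 26.8% lower. The median log2 fold change of the members was 0.09 at 8 h and -0.05 at 24 h, and that of all genes was 0.00 at both times. Most changes were small. Beyond 0.5 on the log2 scale, 2 members were higher and 0 lower at 8 h, where 10.1% of all genes were higher and 7.67% lower (17.8% in all). These 2 are the rows of EIF4A1 and EIF3C, whose limits are given with their values. At 24 h, 0 members were higher and 3 lower beyond this limit, where 10.2% of all genes were higher and 8.46% lower (18.7% in all).

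Of the 18 members higher at 8 h, 12 were not called at 24 h, 4 were higher at both times (EIF2B1, EIF2S3, EIF2S3B and EIF4G3) and 2 were lower at 24 h (EIF3B and EIF4G2). Of the 7 lower at 8 h, 4 were lower at both times (EIF4E, EIF4A2, EIF4A3 and EIF2B3) and 3 were not called at 24 h. Another 9 were lower only by the 24 h test. Some of these patterns rest on weak calls. The 8 h calls of EIF4G3, EIF4E, EIF4A2, EIF4A3, EIF2A, EIF3C, EIF3M and EIF5B were lost when certain single libraries were left out. The 24 h call of EIF1AX was lost in the same way. EIF2S3B can share reads with EIF2S3, so these rows are not separate findings. How many of all genes fell into these patterns was not counted, so the patterns cannot be called particular to the members. The 24 h libraries were also tested against the 8 h libraries, since both times share their controls. In that comparison 28 members were lower and 5 higher, where 28.8% of all genes were lower and 26% higher, and 54.8% were called in all. Beyond 0.5, 0 members were higher and 3 lower, against 10.4% and 10.8% of all genes (21.2% in all). The median member moved by -0.22 between the times and the median gene by -0.02.

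**Figure D1:**
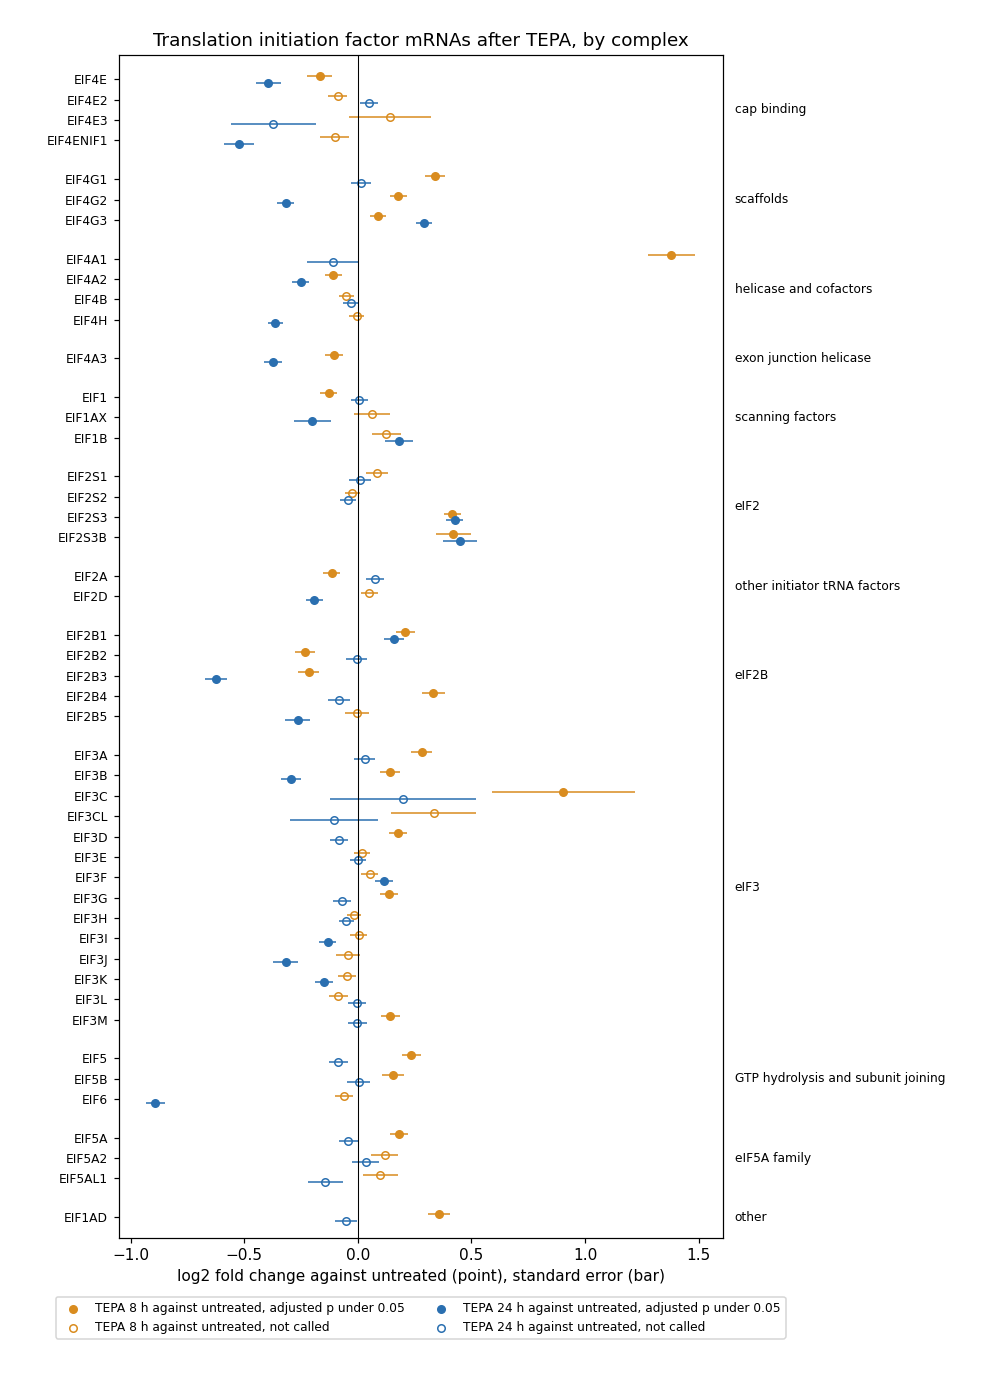
Log2 fold change of the 47 tested members (x axis) at 8 h and at 24 h of TEPA against untreated cells, by complex (y axis), with standard errors as bars and filled points for an adjusted p under 0.05. Most 24 h points lie to the left of the 8 h points of the same gene, and eIF2B points lie on both sides of 0.

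EIF4E, the cap-binding protein, was lower at both times. Its level was 52.4, 54.9 and 55.2 CPM without TEPA, 51.8, 45.7 and 47.1 at 8 h and 42.7, 38.6 and 42.4 at 24 h. The 8 h range lay just under the untreated range, and the 24 h range lay under both. The log2 fold change was -0.17 ± 0.05 (adjusted p = 0.017) at 8 h, -0.39 ± 0.05 (adjusted p = 1.8e-05) at 24 h and -0.23 ± 0.05 (adjusted p = 0.0025) between the times. The 8 h call was lost without untreated replicate 3 (adjusted p = 0.052), TEPA 8 h replicate 2 (0.084) or TEPA 8 h replicate 3 (0.058).

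EIF4ENIF1, also known as 4E-T, binds eIF4E and carries it into the nucleus and into P-bodies. It was measured at 24.2, 26.1 and 25.2 CPM in untreated cells, 23.1, 23.2 and 24.1 at 8 h and 16.6, 19.5 and 16.5 at 24 h. Its log2 fold change was -0.10 ± 0.07 (adjusted p = 0.21) at 8 h and -0.52 ± 0.07 (adjusted p = 7.8e-06) at 24 h, where every library was below every untreated and every 8 h library. EIF4E2, or 4EHP, binds the cap but not eIF4G and represses translation. It was at 114, 105 and 109 CPM in untreated cells, 106, 101 and 100.1 at 8 h and 113, 115 and 109 at 24 h, and was called against untreated cells at neither time, with -0.09 ± 0.04 and 0.05 ± 0.04 on the log2 scale.

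EIF4E3, an atypical cap-binding relative, was scarce, with 1.73, 1.49 and 1.42 CPM in untreated cells, 1.85, 1.54 and 1.71 at 8 h and 1.12, 0.996 and 1.50 at 24 h. Only 24 h against 8 h was called, at -0.51 ± 0.19 (adjusted p = 0.029), and leaving out TEPA 8 h replicate 1 or 3 or TEPA 24 h replicate 1 or 2 ended this call (adjusted p from 0.065 to 0.12).

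The rows of the cap-binding proteins were also compared within each library. The log2 ratio of EIF4E2 to EIF4E counts was 1.12, 0.93 and 0.97 without TEPA, 1.03, 1.15 and 1.09 at 8 h and 1.40, 1.58 and 1.37 at 24 h, so the 24 h libraries lay above all others. The log2 ratio of EIF4EBP1, the 4E-BP1 mRNA, to EIF4E was 0.79, 0.65 and 0.61 untreated, 0.85, 1.04 and 0.93 at 8 h and 1.21, 1.40 and 1.17 at 24 h, with no overlap between groups. In linear terms the mean ratio of counts was 1.61, 1.92 and 2.40. EIF4EBP1 itself was at 90.6, 86.1 and 84.2 CPM untreated, 93.2, 94.0 and 89.6 at 8 h and 98.5, 102 and 95.5 at 24 h, with 0.18 ± 0.04 (adjusted p = 0.0016) at 24 h. A ratio of counts compares one pair of rows across libraries and does not give their molar ratio.

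The 3 scaffolds moved in 3 ways. EIF4G1, the main scaffold that links eIF4E, eIF4A and eIF3, had 531, 599 and 588 CPM untreated, 718, 734 and 723 at 8 h and 581, 596 and 559 at 24 h, so it was higher at 8 h, at 0.34 ± 0.04 (adjusted p = 1.2e-05), and within the untreated range at 24 h, at 0.01 ± 0.04. EIF4G2, or DAP5, which lacks the eIF4E-binding site, was at 1219, 1321 and 1304 CPM, 1457, 1452 and 1438 at 8 h and 1021, 1017 and 1047 at 24 h. It rose by 0.18 ± 0.04 at 8 h and was lower at 24 h, at -0.32 ± 0.04 (adjusted p = 3.3e-06), and the 3 ranges did not overlap.

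EIF4G3, a close relative of EIF4G1, was at 127, 129 and 130.2 CPM untreated, 138, 139 and 134 at 8 h and 155, 161 and 157 at 24 h. It was higher at 24 h, at 0.29 ± 0.03 (adjusted p = 3.8e-06), against untreated cells, and its 8 h value was 0.09 ± 0.03 (adjusted p = 0.048). None of the 6 fits without one of its libraries kept the 8 h call, with adjusted p from 0.074 to 0.18. Against EIF4G1, the log2 ratio of EIF4G3 counts was -2.06, -2.21 and -2.17 untreated, -2.38, -2.40 and -2.43 at 8 h and -1.90, -1.88 and -1.83 at 24 h. That of EIF4G2 to EIF4G1 was 1.20, 1.14 and 1.15 untreated, 1.02, 0.99 and 0.99 at 8 h and, at 24 h, 0.81, 0.77 and 0.91. Both ratios were free of overlap between the 3 groups, and the first was lowest at 8 h while the second was lowest at 24 h.

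**Figure D2:**
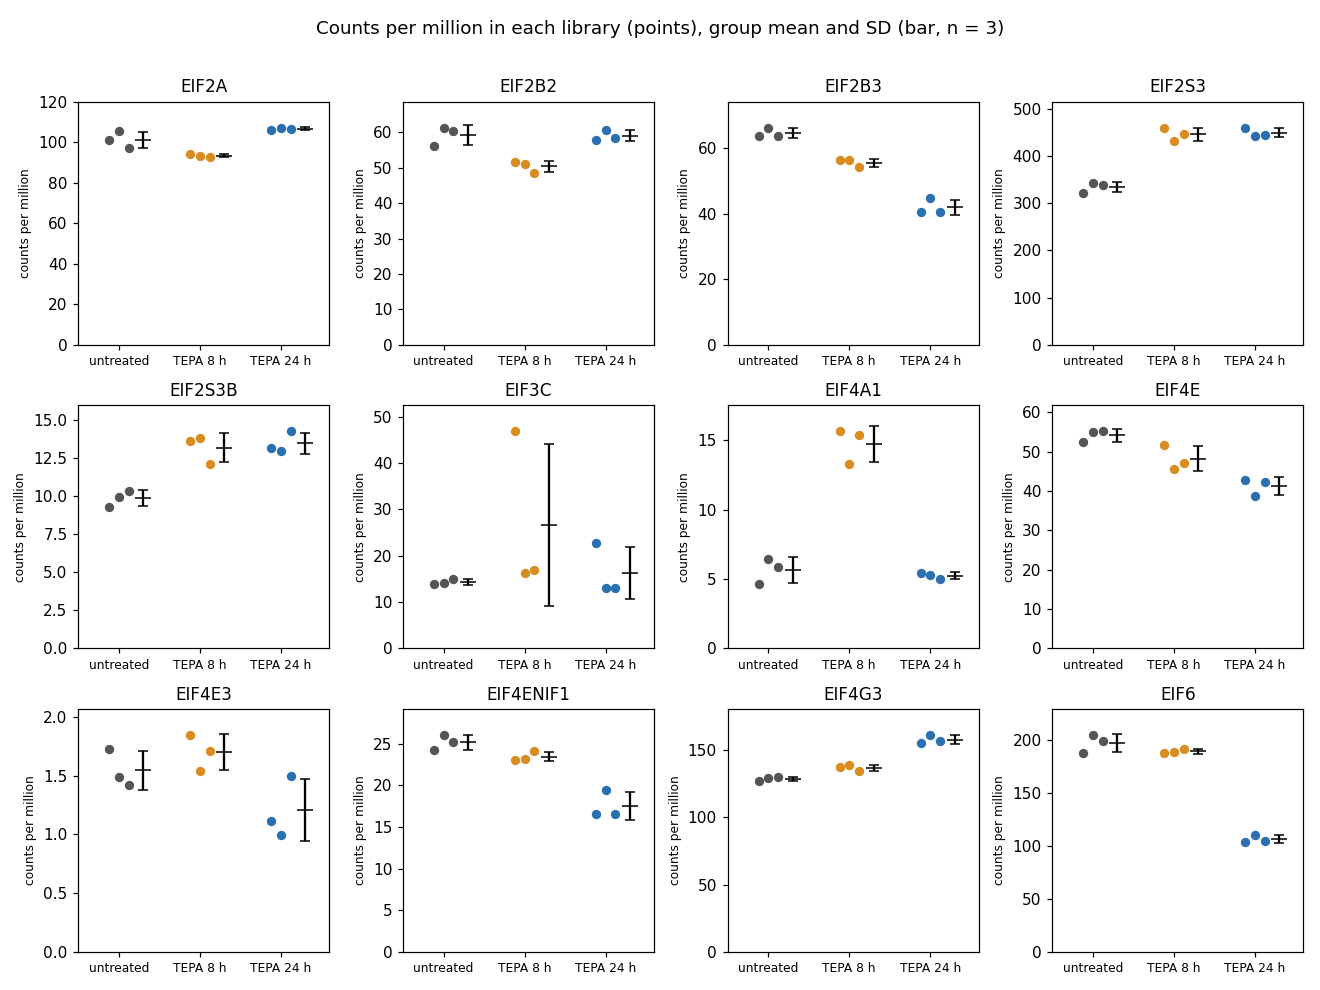
CPM (y axis, from 0) in each of the 9 libraries for 12 members, with untreated, TEPA 8 h and TEPA 24 h libraries along the x axis and the mean and SD of 3 libraries beside them. EIF6, EIF2B3, EIF4ENIF1 and EIF4E are lowest at 24 h, EIF2S3 and EIF2S3B are higher at both times, and the EIF3C spread at 8 h comes from one library.

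Among the helicase genes, EIF4A1 had the largest log2 fold change of any member, and its row cannot be read as the mRNA of the helicase. It lay at 4.64, 6.41 and 5.86 CPM untreated, 15.6, 13.3 and 15.3 at 8 h and 5.45, 5.26 and 5.01 at 24 h, which is 1.38 ± 0.10 (adjusted p = 6.1e-08) at 8 h and -0.11 ± 0.11 at 24 h. The gene covers chr17:7572824-7579006 on the plus strand. In GENCODE v44, 100% of the exon bases of its canonical transcript also belong to other gene names on the same strand, chiefly the readthrough gene SENP3-EIF4A1 and ENSG00000264772. The authors counted by gene name, and the stated options do not assign a read that falls on 2 names. Of the 2733 exon bases that EIF4A1 alone holds, 100% lie outside the canonical transcript, in exons of its other annotated transcripts. The row is thus a count of those stretches, as far as this annotation, which is later than the one the authors used, describes it.

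The readthrough row SENP3-EIF4A1 moved the same way at 8 h, with 0.240, 0.416 and 0.380 CPM untreated, 1.60, 1.18 and 1.71 at 8 h and 0.981, 0.741 and 0.779 at 24 h, and 2.09 ± 0.26 (adjusted p = 8.6e-06) on the log2 scale at 8 h. Unlike EIF4A1, this row was still higher at 24 h, at 1.26 ± 0.28 (adjusted p = 0.0013). It rests on only 9 to 64 counts per library. SENP3, the upstream gene, was at 65.2, 70.5 and 70.3 CPM untreated and 70.8, 74.8 and 71.6 at 8 h, with 0.08 ± 0.04 (adjusted p = 0.15). A count without 5 rows was chosen after the values were seen: EIF4A1, EIF3C and its copy EIF3CL, and the retrocopies EIF5AL1 and EIF2S3B. It had 15 members higher and 7 lower at 8 h, and 5 higher and 15 lower at 24 h. Of the rows left out, EIF4A1 alone shares exon bases with another gene name, and the others are copies or, for EIF3C, have a copy. The count keeps the parent genes EIF2S3 and EIF5A and rows that share fewer bases than EIF4A1, such as EIF3L, EIF6 and EIF5.

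EIF4A2, the paralogue of the helicase, was lower at 24 h, with 247, 258 and 249 CPM untreated, 242, 230.1 and 228 at 8 h and 214, 204 and 215 at 24 h. Its log2 fold changes were -0.11 ± 0.04 (adjusted p = 0.027) and -0.25 ± 0.04 (adjusted p = 4.1e-05), and the 8 h call was lost without untreated replicate 2 or without TEPA 8 h replicate 2 or 3 (adjusted p from 0.069 to 0.095). EIF4H, which stimulates the helicase, stayed within the untreated spread at 8 h (-0.01 ± 0.03) and fell at 24 h, from 487, 507 and 491 CPM untreated to 387, 391 and 375, a log2 fold change of -0.36 ± 0.03 (adjusted p = 2.9e-07). EIF4B, the other cofactor, differed from untreated by -0.05 ± 0.03 and -0.03 ± 0.03, and neither value was called. EIF4A3 is named as a helicase of this family but is a core of the exon junction complex. It lay at 158 ± 5.17 CPM untreated (SD, n = 3) and 122 ± 2.84 at 24 h, with -0.37 ± 0.04 (adjusted p = 1e-06), and its 8 h value of -0.11 ± 0.04 (adjusted p = 0.034) was lost without untreated replicate 2 or 3 or without TEPA 8 h replicate 1 or 3.

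eIF2 has 3 subunits, and of these the mRNA of the GTP-binding gamma subunit alone was called. EIF2S3 was at 322, 342 and 340.1 CPM without TEPA, 459, 433 and 448 at 8 h and 461, 443 and 446 at 24 h. All 6 TEPA libraries were above all untreated ones, at 0.42 ± 0.04 (adjusted p = 3.4e-07) and 0.43 ± 0.04 (adjusted p = 1.6e-07), or 1.33-fold and 1.34-fold, and the 2 times differed by 0.01 ± 0.04. The retrocopy EIF2S3B, which can share reads with EIF2S3, was at 9.30, 9.94 and 10.3 CPM untreated, 13.6, 13.8 and 12.1 at 8 h and 13.2, 13.0 and 14.3 at 24 h. Its log2 fold changes of 0.42 ± 0.08 and 0.45 ± 0.08 cannot be told apart from those of its parent gene.

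EIF2S1, the alpha subunit that the EIF2AK kinases phosphorylate, was at 136 ± 8.42 CPM untreated (SD, n = 3), 145 ± 4.90 at 8 h and 137 ± 6.48 at 24 h, which gave 0.09 ± 0.05 and 0.01 ± 0.05. EIF2S2, the beta subunit, was at 281 ± 1.45, 276 ± 7.07 and 272 ± 3.47 CPM, with -0.02 ± 0.03 and -0.04 ± 0.03. The log2 ratio of EIF2S3 to EIF2S2 counts, a pair picked after the values were seen, was 0.20, 0.28 and 0.28 untreated, 0.77, 0.61 and 0.71 at 8 h and 0.78, 0.69 and 0.71 at 24 h.

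Per length, the 3 subunits were not at one level. In untreated cells EIF2S2 was at 109.8 ± 0.566 CPM per kb of canonical transcript (SD, n = 3), EIF2S3 at 96.9 ± 3.15 and EIF2S1 at 32.8 ± 2.03. At 8 h and 24 h, EIF2S3 stood at 129 and 130.2 and EIF2S2 at 108 and 106. Of the unshared exon bases of EIF2S3, 15.3% lie outside its canonical transcript, and its retrocopy can share its reads. The order of EIF2S3 and EIF2S2 can therefore not be read from these values.

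The 5 subunits of eIF2B, the exchange factor of eIF2, went in both directions. EIF2B3, the gamma subunit of the catalytic part, fell the most, with 63.8, 66.3 and 63.7 CPM untreated, 56.3, 56.3 and 54.2 at 8 h and 40.6, 44.7 and 40.4 at 24 h. The 3 groups did not overlap, and the log2 fold change was -0.22 ± 0.05 (adjusted p = 0.0011) at 8 h and -0.62 ± 0.05 (adjusted p = 2.6e-08) at 24 h, a 1.54-fold lower level. EIF2B5, the catalytic epsilon subunit, was at 36.4, 41.1 and 39.6 CPM untreated, 38.8, 38.3 and 39.6 at 8 h and 31.7, 34.1 and 31.6 at 24 h, with -0.01 ± 0.05 and -0.27 ± 0.05 (adjusted p = 0.00059). Both subunits of the catalytic part were thus lower at 24 h.

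The regulatory part consists of the alpha, beta and delta subunits. EIF2B1 was at 68.5, 72.9 and 75.2 CPM untreated, 85.4, 82.0 and 83.1 at 8 h and 80.8, 82.5 and 78.5 at 24 h, higher by 0.21 ± 0.04 (adjusted p = 0.00073) and 0.16 ± 0.04 (adjusted p = 0.0049). EIF2B4 was called higher at 8 h and not at 24 h, at 43.1, 44.4 and 44.0 CPM against 34.0, 36.7 and 33.7 untreated and 33.7, 33.5 and 31.2 at 24 h, with 0.33 ± 0.05 (adjusted p = 4.9e-05) and -0.08 ± 0.05. EIF2B2 went the other way at 8 h, from 56.1, 61.4 and 60.3 CPM untreated to 51.7, 51.0 and 48.6, and was at 57.8, 60.8 and 58.6 at 24 h, with -0.23 ± 0.05 (adjusted p = 0.00057) and -0.01 ± 0.05.

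At 8 h, 2 eIF2B subunits were higher and 2 lower, where 25.2% of all genes were higher and 24.5% lower. At 24 h 1 was higher and 2 lower, where the shares of all genes were 25.7% and 26.8%. The sum over the 5 rows was 259, 278 and 272 CPM untreated, 275, 272 and 269 at 8 h and 245, 256 and 240.3 at 24 h, and the 8 h sums lay within the untreated range. The log2 ratio of EIF2B3 to EIF2B1 counts, also picked after the values were seen, was -0.10, -0.14 and -0.24 untreated, -0.60, -0.54 and -0.62 at 8 h and -0.99, -0.88 and -0.96 at 24 h.

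**Figure D3:**
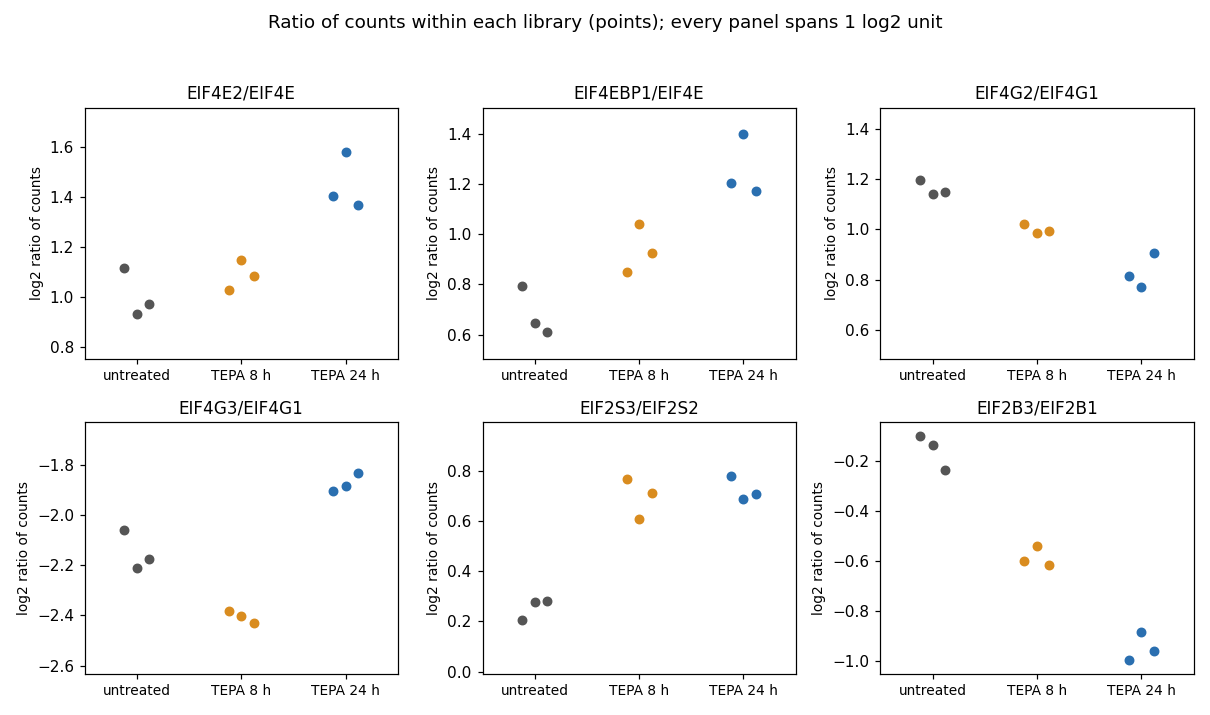
Log2 ratio of the counts of 2 genes within each library (y axis, each panel spanning 1 log2 unit) for untreated, TEPA 8 h and TEPA 24 h libraries (x axis, 3 points each). EIF4EBP1/EIF4E, EIF4G2/EIF4G1, EIF4G3/EIF4G1 and EIF2B3/EIF2B1 show no overlap between any groups, and EIF2S3/EIF2S2 is alike at both times.

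eIF3, the largest initiation factor, holds the small subunit and the mRNA together, and most of its 14 rows tested changed little. At 8 h 6 were higher, the EIF3C row among them, and 0 lower, or 42.9% called against 49.6% of all genes. At 24 h 1 was higher and 4 lower, or 35.7% against 52.5%. The median log2 fold change was 0.09 at 8 h and -0.06 at 24 h. EIF3A and EIF3D gave the largest called rises at 8 h after the EIF3C row. EIF3A, a core subunit, was at 340.0, 397 and 366 CPM untreated, 452, 452 and 437 at 8 h and 371, 377 and 379 at 24 h, with 0.28 ± 0.05 (adjusted p = 0.00012) at 8 h. EIF3D, which can bind the cap of some mRNAs, was higher at 8 h by 0.18 ± 0.04 (adjusted p = 0.0015). EIF3G and EIF3M rose less, by 0.14 ± 0.04 and 0.14 ± 0.04, but EIF3M did not pass (adjusted p = 0.054) once TEPA 8 h replicate 1 was left out.

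EIF3B, which forms the core with EIF3A and EIF3C, was at 302, 340.2 and 328 CPM untreated, 359, 354 and 356 at 8 h and 261, 274 and 256 at 24 h, higher by 0.14 ± 0.04 (adjusted p = 0.013) at 8 h and lower at 24 h, at -0.29 ± 0.04 (adjusted p = 3.4e-05). EIF3J, a loosely bound subunit, was lower at 24 h, at 94.0, 85.6 and 94.3 CPM against 107, 119 and 115 untreated, with -0.32 ± 0.05 (adjusted p = 0.00014). EIF3I and EIF3K were lower at 24 h by smaller amounts, -0.13 ± 0.04 and -0.15 ± 0.04. EIF3F alone among the eIF3 rows rose at 24 h, by 0.11 ± 0.04 (adjusted p = 0.023), and did not pass without untreated replicate 2 or 3 or without TEPA 24 h replicate 1 or 2.

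EIF3E, EIF3H and EIF3L were called in none of the 3 comparisons. For EIF3E the log2 fold changes were 0.02 ± 0.04 and -0.00 ± 0.04, for EIF3H -0.02 ± 0.03 and -0.05 ± 0.03, and for EIF3L -0.09 ± 0.04 and -0.00 ± 0.04. Of the canonical EIF3L transcript, 58.5% of bases are shared with another gene name, so its count covers only part of the mRNA.

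The EIF3C row cannot be taken as a change of the group. It was at 13.8, 14.1 and 15.0 CPM untreated, 46.8, 16.2 and 16.8 at 8 h and 22.7, 12.9 and 13.1 at 24 h, so replicate 1 stood far above the other 2 libraries at both times. Against untreated cells the 8 h libraries gave 0.90 ± 0.31 (adjusted p = 0.026), and 0.20 (adjusted p = 0.4) without TEPA 8 h replicate 1. The call also ended without untreated replicate 3 (adjusted p = 0.054). Without TEPA 24 h replicate 1 the 24 h value turned from 0.20 to -0.14. EIF3C has a near-identical copy, EIF3CL, on the same chromosome, and reads that match both can be dropped. EIF3CL was at 2.03, 1.55 and 1.60 CPM untreated, 1.77, 2.80 and 1.93 at 8 h and 1.77, 1.53 and 1.47 at 24 h, and was not called.

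EIF6 showed the largest fall of any member against untreated cells. The protein keeps the large ribosomal subunit from joining the small one and takes part in making that subunit. Its mRNA was at 188, 205 and 199 CPM without TEPA, 188, 188 and 192 at 8 h and 104, 111 and 105 at 24 h. At 8 h the values lay within or at the edge of the untreated range (-0.06 ± 0.04), and at 24 h all 3 libraries were near one level, far below the rest. This was -0.89 ± 0.04 (adjusted p = 1.5e-10) against untreated cells and -0.83 ± 0.04 (adjusted p = 3.7e-10) against 8 h, or 1.85-fold and 1.78-fold lower. Of its canonical transcript, 26.6% of bases are shared with ENSG00000261582, and the count rests on the others.

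The other 2 factors of the late steps were higher at 8 h and not called at 24 h. EIF5, which stimulates GTP hydrolysis on eIF2, was at 204, 230.3 and 222 CPM untreated, 257, 259 and 257 at 8 h and 209, 203 and 207 at 24 h, with 0.23 ± 0.04 (adjusted p = 0.00022) and -0.09 ± 0.04. EIF5B, the GTPase that joins the subunits, was at 229.7, 273 and 261 CPM, 287, 287 and 276 at 8 h and 254, 252 and 259 at 24 h, with 0.15 ± 0.05 (adjusted p = 0.018) at 8 h. That call was lost without untreated replicate 1, TEPA 8 h replicate 1 or TEPA 8 h replicate 2, and without untreated replicate 1 the value was 0.08.

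Among the scanning factors, EIF1, which guards the choice of start codon, was lower at 8 h, at 439, 436 and 434 CPM against 479, 478 and 473 untreated and 479, 502 and 456 at 24 h, with -0.13 ± 0.04 (adjusted p = 0.0096). Its paralogue EIF1B was up at 24 h by 0.18 ± 0.06 (adjusted p = 0.025), which did not hold without untreated replicate 3 or without TEPA 24 h replicate 1 or 3. EIF1AX, which works with EIF1, was lower at 24 h, at -0.20 ± 0.08 (adjusted p = 0.045), which did not hold without untreated replicate 2 or 3 or TEPA 24 h replicate 1 or 2, with -0.11 without TEPA 24 h replicate 2. Pseudogenes of EIF1AX could take part of its reads.

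EIF2A and EIF2D can each deliver initiator tRNA apart from eIF2, and their mRNAs moved in opposite directions from 8 h to 24 h. EIF2A was at 101, 105 and 97.3 CPM untreated, 94.3, 93.0 and 92.8 at 8 h and 106, 107 and 107 at 24 h, with -0.12 ± 0.04 (adjusted p = 0.019), 0.07 ± 0.04 (adjusted p = 0.11) and, between the times, 0.19 ± 0.04 (adjusted p = 0.00051). The 8 h call was lost without untreated replicate 2 or TEPA 8 h replicate 2. EIF2D was at 74.4 ± 0.930 CPM untreated (SD, n = 3), 77.0 ± 0.716 at 8 h and 65.1 ± 1.52 at 24 h, with 0.05 ± 0.04 and -0.19 ± 0.04 (adjusted p = 0.00046), and -0.24 ± 0.04 (adjusted p = 5e-05) between the times.

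EIF5A, which acts mainly in elongation and carries the modified amino acid hypusine, had the highest CPM of the member rows. EIF4A1 cannot be ranked, since its row does not give the level of its mRNA. EIF5A was at 1269, 1363 and 1394 CPM untreated, 1505, 1527 and 1531 at 8 h and 1284, 1353 and 1274 at 24 h, with 0.18 ± 0.04 (adjusted p = 0.0016) and -0.04 ± 0.04. EIF5A2, its paralogue, was called at neither time (0.12 ± 0.06 and 0.03 ± 0.06), and the log2 ratio of EIF5A2 to EIF5A counts stayed between -6.02 and -5.67 in all 9 libraries. EIF5AL1, a retrocopy that can share reads with EIF5A, was at 56.6, 65.0 and 74.7 CPM untreated, 76.7, 67.9 and 65.6 at 8 h and 60.5, 60.0 and 57.2 at 24 h. EIF1AD, named for its likeness to EIF1A, was higher at 8 h, at 53.1, 53.3 and 53.4 CPM against 41.8, 43.6 and 39.3 untreated and 38.6, 40.1 and 41.9 at 24 h, with 0.36 ± 0.05 (adjusted p = 1.9e-05).

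Per kb of canonical transcript, the levels of the members in untreated cells spanned several orders of magnitude. Among the 46 rows compared, which leave out EIF4A1, EIF5A was highest at 1062 ± 51.7 CPM per kb (SD, n = 3), followed by EIF4G2 at 338 ± 14.3. EIF1 (204 ± 1.42), EIF3G (195 ± 4.11), EIF4H (193 ± 4.28) and EIF6 (184 ± 8.21) lay close together, and their order cannot be read from these values. Shared bases lower the EIF6 value, and 68.4% of the unshared exon bases of EIF3G lie outside the canonical length that divides its counts. The same share is 65.6% for EIF4A2, 55.9% for EIF4H, 54.6% for EIF4G2 and 52.9% for EIF5A. For EIF4E it is 49.4% and for EIF4G1 38.2%, so all these values per kb are approximate. EIF4E stood well below its partners, at 22.3 ± 0.651, against 106 ± 6.73 for EIF4G1, 133 ± 3.26 for EIF4A2 and 113 ± 4.53 for EIF4E2. The canonical EIF4E2 transcript is short and covers few of the exon bases counted for that gene, so its value per kb is an upper figure. Within eIF2B, untreated levels ran from 13.8 for EIF2B2 to 34.0 for EIF2B3, and at 24 h EIF2B1 was at 33.6 and EIF2B3 at 22.1. Of the unshared exon bases, 33.9% for EIF2B1 and 44.3% for EIF2B3 lie outside the canonical length, so their order is approximate too. EIF4E3 was lowest of the 46 rows compared, at 0.155 ± 0.0165.

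**Figure D4:**
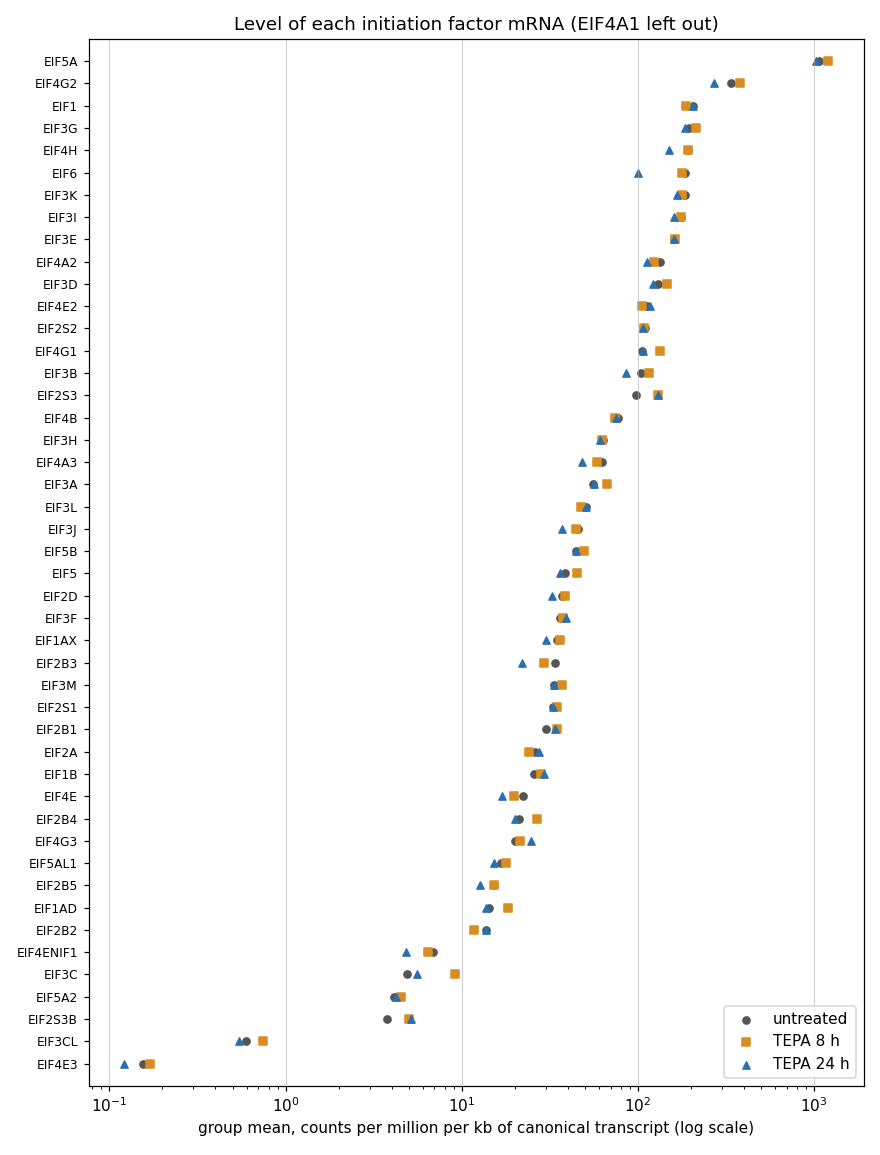
Group means of CPM per kb of canonical transcript (x axis, log scale) for 46 tested members (y axis, in the order of the untreated level), EIF4A1 left out. EIF5A lies near 1062 and EIF4E3 near 0.155 in untreated cells, and EIF6 and EIF2B3 show the widest gaps to their 24 h points.

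Beside the factors, 36 of 37 further genes of the initiation pathway passed the filter (regulators, kinases and partner proteins). At 8 h 12 were higher and 9 lower, at 24 h 10 were higher and 12 lower, and from 8 h to 24 h 9 were higher and 14 lower, with medians of 0.06, 0.01 and -0.07. Their shares called, 58.3%, 61.1% and 63.9%, were somewhat above the 49.6%, 52.5% and 54.8% of all genes.

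Pathway genes called beyond 0.5 included PDCD4, PAIP2 and PAIP2B. PDCD4, which blocks eIF4A, was at 36.0, 27.6 and 31.1 CPM untreated, 22.1, 20.6 and 19.5 at 8 h and 34.8, 33.1 and 36.1 at 24 h, lower at 8 h, at -0.60 ± 0.08 (adjusted p = 1.8e-05), and not called at 24 h (0.14 ± 0.08). PAIP2, which removes the poly(A)-binding protein from mRNA, was at 92.6, 80.9 and 83.3 CPM, 61.0, 57.6 and 57.5 at 8 h and 88.5, 90.3 and 90.8 at 24 h, with -0.54 ± 0.05 (adjusted p = 3.5e-07) and 0.07 ± 0.05. Both were below all untreated libraries at 8 h and inside or near the untreated range at 24 h. PAIP2B, a relative of PAIP2, was instead higher at 24 h, at 9.18, 9.98 and 9.40 CPM against 5.71, 5.78 and 5.81 untreated and 6.67, 5.67 and 5.20 at 8 h, with 0.72 ± 0.09 (adjusted p = 8.6e-06).

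The regulators of eIF2 phosphorylation did not move as a group. EIF2AK3, or PERK, was at 37.2, 32.6 and 33.9 CPM untreated, 27.4, 27.3 and 26.4 at 8 h and 24.8, 26.2 and 27.5 at 24 h, lower at both times, at -0.35 ± 0.06 (adjusted p = 0.00013) and -0.40 ± 0.06 (adjusted p = 3e-05). EIF2AK2, or PKR, was higher at both times (0.26 ± 0.05 and 0.46 ± 0.05), EIF2AK1 was lower and then higher (-0.12 ± 0.04 and 0.33 ± 0.04), and EIF2AK4 was higher at 8 h by 0.10 ± 0.03 and at 0.00 ± 0.03 at 24 h. PPP1R15A, the stress-induced subunit of the phosphatase that reverses this mark, was at 91.2, 112 and 108 CPM untreated, 124, 117 and 126 at 8 h and 76.1, 77.1 and 71.7 at 24 h, with 0.23 ± 0.06 (adjusted p = 0.0049) and -0.47 ± 0.06 (adjusted p = 1.1e-05).

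DHPS, the enzyme that starts hypusine formation on EIF5A, had 2.16, 2.69 and 2.36 CPM untreated, 5.75, 5.31 and 5.58 at 8 h and 2.73, 2.48 and 2.50 at 24 h, and 1.20 ± 0.11 (adjusted p = 5.9e-07) at 8 h. As for EIF4A1, most of the canonical transcript (86%) lies under a second gene name on the same strand, and 89.7% of the exon bases that DHPS alone holds are outside it. DOHH, which completes hypusine, was higher at 8 h by 0.23 ± 0.06 (adjusted p = 0.003) and at -0.02 ± 0.06 at 24 h.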

How the data were processed

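RNA-Seq of 9 MDA-MB-231 libraries was read as 100-base pairs from stranded mRNA libraries. Reads were checked with FastQC, aligned with HISAT2 to hg38 and counted with featureCounts over exons by gene name, with strand used. The authors deposited them as raw counts for 59453 gene names in 9 library columns, not normalized, and tested them with DESeq2. No column was left out.

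From the counts, filterByExpr of edgeR 4.0.16 (R 4.3.3, minimum count 10) kept 16556 genes. Library sizes were scaled by TMM factors from 0.978 to 1.04, and CPM values use the scaled sizes. One quasi-likelihood model of the 9 libraries gave a biological coefficient of variation of 0.0481, and adjusted p-values are Benjamini-Hochberg values over the 16556 genes. Values after ± are standard errors for log2 fold changes and SDs for levels. Alternatives used DESeq2 1.42.0, RLE or upper-quartile factors, other filters, a fold limit, the 2 groups compared alone, a replicate block, each library left out, and mitochondrial genes left out. On simulated counts of 15979 genes for 8 h against untreated, 191 of 200 changed genes were recovered with 9 false calls. In the 9 libraries 49.6% of all genes were called at 8 h, a far larger share than was changed in those counts. Recovery was also not split by size of change. Whether calls as many and as small as those reported here would be recovered was not tested.

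The members, their complexes and the pathway list were chosen with earlier results of these data known. Members given with the value of every library are EIF4E, those called with a log2 fold change beyond 0.5 in any comparison, and the 3 highest and 3 lowest of each comparison with a mean of at least 50 counts. Other members given in this way were chosen after their values were seen. Pathway genes were named when called beyond 0.5, with EIF4EBP1 and EIF2AK3 added, and EIF2AK1, EIF2AK2, EIF2AK4 and DOHH were added after their values were seen. Gene models are from GENCODE v44 and promoters from RefSeq. Protein sequences were not analysed here. One marker gene fixed for the check of other cell types is not reported here.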

Additional observations from a re-analysis of the deposited data

Results flagged for a closer look

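For 33 of the 47 tested members the level at 24 h differed from that at 8 h, by edgeR's test of the 24 h against the 8 h libraries (54.8% of all genes passed it). Longer culture and longer TEPA cannot be told apart in this comparison. Values are log2 fold changes of 24 h against 8 h, and no explanation was tested. In cap binding they were -0.23 for EIF4E, 0.14 for EIF4E2, -0.51 for EIF4E3 and -0.42 for EIF4ENIF1. Scaffolds gave -0.32 for EIF4G1, -0.49 for EIF4G2 and 0.21 for EIF4G3. Helicase genes and the cofactor gave -1.49 for EIF4A1, whose row is uncertain, -0.14 for EIF4A2, -0.36 for EIF4H and -0.27 for EIF4A3. For the scanning factors they were 0.14 for EIF1 and -0.26 for EIF1AX, and for the other initiator tRNA factors 0.19 for EIF2A and -0.24 for EIF2D. Subunits of eIF2B gave 0.23 for EIF2B2, -0.41 for EIF2B3, -0.42 for EIF2B4 and -0.26 for EIF2B5. In eIF3 they were -0.25 for EIF3A, -0.43 for EIF3B, -0.26 for EIF3D, -0.21 for EIF3G, -0.14 for EIF3I, -0.28 for EIF3J, -0.10 for EIF3K and -0.14 for EIF3M. The late factors gave -0.32 for EIF5, -0.15 for EIF5B and -0.83 for EIF6, the eIF5A family -0.22 for EIF5A and -0.24 for EIF5AL1, and EIF1AD was at -0.41. None of the 4 eIF2 rows was among them. The calls of EIF4E3, EIF5B, EIF3K, EIF5AL1 and EIF1AX were lost when single libraries were left out: EIF4E3 without TEPA 8 h replicate 1 or 3 or TEPA 24 h replicate 1 or 2, EIF5B without TEPA 8 h replicate 1 or 2 or TEPA 24 h replicate 1 or 2, EIF3K in all fits but that without TEPA 24 h replicate 2, EIF5AL1 without TEPA 8 h replicate 1 or TEPA 24 h replicate 3, and EIF1AX without TEPA 8 h replicate 1 or TEPA 24 h replicate 2.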

How the results depend on the processing

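The counts of members called kept within 1.5 times the values reported under RLE and upper-quartile factors, DESeq2, no filter, 10 counts in every library, only the 2 groups compared and the library sizes without mitochondrial genes, and so did the pathway counts. They moved with a fold limit. Beyond 0.5 on the log2 scale, members higher and lower fell to 2 and 0 at 8 h, 0 and 3 at 24 h, and 0 and 3 from 8 h to 24 h, and pathway genes to 1 and 2, 1 and 0, and 3 and 2. Leaving out each library in turn gave 14 to 17 members higher and 4 to 8 lower at 8 h, 4 to 6 and 14 to 19 at 24 h, and 5 to 6 and 24 to 27 from 8 h to 24 h. The lower count at 8 h was 4 without TEPA 8 h replicate 2 and without TEPA 8 h replicate 3. Without the rows of EIF4A1, EIF3C, EIF3CL, EIF5AL1 and EIF2S3B, chosen after the data were seen, it stayed at 7.

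Equal replicate numbers did not pair the libraries: deviations from the group means correlated between -0.0801 and 0.0383 for libraries with one number. With the replicate number as a block, 17 members were higher and 7 lower at 8 h, 6 and 14 at 24 h, and 5 and 29 between the times, and pathway genes gave 12 and 9, 10 and 12, and 9 and 13. The block ended the calls of EIF4G3 at 8 h (adjusted p = 0.072) and EIF1AX at 24 h (adjusted p = 0.052), made one of EIF3C between the times (-0.64, adjusted p = 0.024, against 0.065), and changed the call of no other member.

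Sign changes were looked for only among the members and pathway genes picked by the naming rule. Those found were near 0 or rested on one library, and the cause was not tested. Other members not called also changed sign without single libraries, such as EIF4G1 at 24 h (-0.0381 to 0.0464) and EIF1AX at 8 h (-0.0355 to 0.116). EIF2B2 at 24 h, -0.01 as reported, was 0.00184 with RLE, 0.0207 with upper-quartile factors, 0.00498 with 10 counts in every library and 0.00174 with DESeq2, and -0.0446 to 0.0187 without single libraries. From 8 h to 24 h, leaving out single libraries gave -0.00777 to 0.0345 for EIF2S3 and -0.0226 to 0.0688 for EIF2S3B. EIF3C at 24 h ran from -0.14 (without TEPA 24 h replicate 1) to 0.34, and PAIP2B at 8 h from -0.0894 (without TEPA 8 h replicate 1) to 0.0941. Without the filter the EIF3C row also passed at 24 h (adjusted p = 0.027) and between the times (adjusted p = 1.9e-21), and the latter passed too without TEPA 8 h replicate 2 or 3 or TEPA 24 h replicate 1 (adjusted p from 0.017 to 0.021), and the cause was not tested. With DESeq2 the EIF3C call at 8 h had an adjusted p of 0.11 and the EIF4E3 call between times one of 0.067. Depth limits EIF4E3 and EIF3CL, near 1 to 3 CPM.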
